A study of Mus musculus with 4 samples.

Results

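The genes described here are 10 that mark neutrophils: the granule and cytosolic protein genes S100a8, S100a9, Ngp, Camp, Mpo, Elane and Retnlg, and the surface receptor genes Csf3r, Il1r2 and Trem1. They were chosen by symbol, and every probe set annotated to exactly 1 of these symbols was taken. This gave 10 probe sets for 9 genes, of 34945 single-symbol probe sets and 18193 genes on the array. Retnlg, the gene of a resistin-like secreted protein, had no such probe set and has no value here. Trem1 had 2 probe sets and each other gene had 1.

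RNA was measured on 4 Affymetrix 3′ expression arrays of endometriotic lesions, deposits of endometrium-like tissue at sites other than the uterus, from mice. Replicates 1 and 2 of the casein diet, which the labels name as the control, were set against replicates 1 and 2 of the high-fat diet. The series title describes the mouse model as immunocompetent and links the diet to redox and inflammatory status. The sources used here give no strain, genotype, age, time on the diet or number of animals or lesions behind an array. P-values therefore measure only the spread between these samples, which may be technical. Values are deposited intensities in linear units, and a difference is the mean log2 intensity of the high-fat arrays less that of the casein arrays, with its moderated standard error (SE).

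Neutrophils are short-lived white blood cells that leave the blood for inflamed tissue. Their proteins are made in a fixed order: azurophil granule enzymes such as myeloperoxidase and neutrophil elastase in early bone marrow precursors, specific granule proteins somewhat later, and S100A8 and S100A9 and the surface receptors up to the mature cell. A mature neutrophil in tissue therefore holds azurophil enzymes as protein but little of their mRNA. Neutrophils and their attractants have been described in peritoneal fluid and lesions in endometriosis. In bulk tissue, fewer cells of a type and less RNA per cell cannot be told apart.

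High-fat diet replicate 1 stood above the other arrays for most of these genes, and high-fat diet replicate 2 did not. It was the highest of the 4 arrays for 7 of 9 genes, against 24.1% of all 18193 genes on the array. For 6 of 9 it exceeded every other array by at least 1.5-fold, against 1.37% of all genes, a size of step chosen after the values were seen. The member just inside this step was Csf3r at 1.53-fold and the one just outside was Trem1 at 1.41-fold. High-fat diet replicate 2 lay within the range of the casein arrays for 5 of 9 genes, against 35.3% of all genes. Mpo and Elane, the azurophil granule genes, were near level across all arrays.

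By diet, none of the 9 genes passed limma's test with Benjamini-Hochberg adjustment over 34945 probe sets (0 of 9 at an adjusted p of 0.05, lowest adjusted p = 0.851), where 0% of all probe sets passed. At an unadjusted p of 0.05 the count was also 0 of 9, against 972 of 18193 genes on the array and 5.02% of all probe sets. The difference was positive for 8 of 9 genes, with a median of 0.48, against 49.7% and -0.001 over all genes on the array. Both high-fat arrays lay above both casein arrays for 1 gene, Camp, where 17.0% of all genes did so. Without high-fat diet replicate 1, 4 of 9 differences were positive and their median was 0.00.

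**Figure D1:**
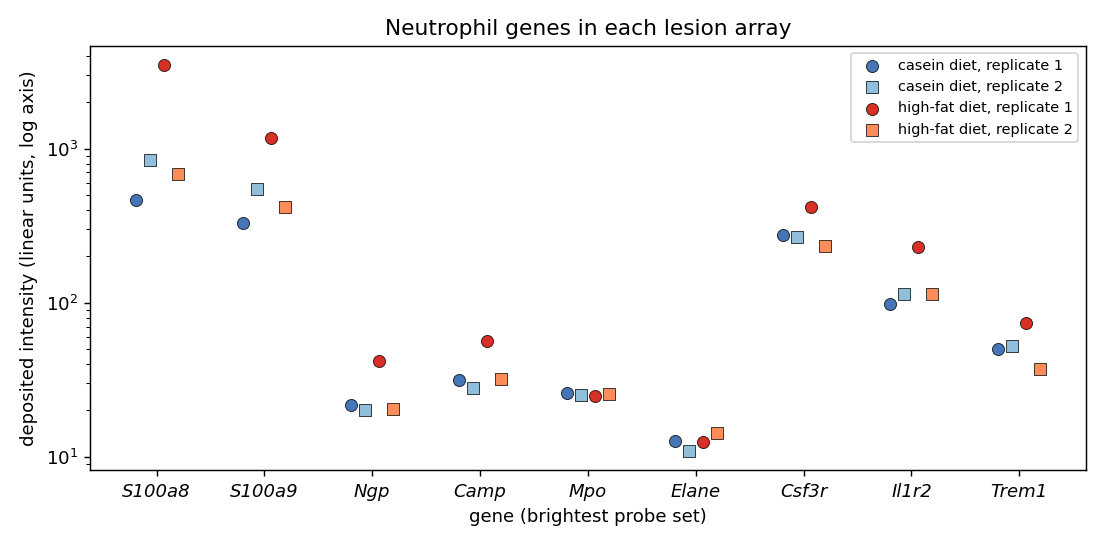
Deposited intensity on a log axis for the brightest probe set of each of 9 neutrophil genes, with 1 point for each array and the diets by colour. High-fat diet replicate 1 is the top point for 7 genes, and the points of Mpo and Elane lie close together.

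The sequence before the start of 4 of these genes is shown because S100a8, S100a9 and Ngp shared the pattern of high-fat diet replicate 1 and Mpo did not. The windows are the 250 bases before the start in the RefSeq table of build GRCm38.p6, where all 10 genes had an entry. They lie at chr3:90668821-90669070 on the plus strand for S100a8, chr3:90695722-90695971 on the minus strand for S100a9, chr9:110419558-110419807 on the plus strand for Ngp and chr11:87793534-87793783 on the plus strand for Mpo. Capitals mark matches, on either strand, to the letters TTGCNNAA for C/EBP factors, AGGAAGT for PU.1, TATAAA for the TATA box and GGGNNTTCC for NF-kB. C/EBP factors and PU.1 are regulators of myeloid genes.
S100a8: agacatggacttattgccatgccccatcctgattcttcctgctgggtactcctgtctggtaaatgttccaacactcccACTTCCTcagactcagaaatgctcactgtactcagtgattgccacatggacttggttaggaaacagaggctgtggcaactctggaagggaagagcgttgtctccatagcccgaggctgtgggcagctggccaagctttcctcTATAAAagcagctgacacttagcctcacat
S100a9: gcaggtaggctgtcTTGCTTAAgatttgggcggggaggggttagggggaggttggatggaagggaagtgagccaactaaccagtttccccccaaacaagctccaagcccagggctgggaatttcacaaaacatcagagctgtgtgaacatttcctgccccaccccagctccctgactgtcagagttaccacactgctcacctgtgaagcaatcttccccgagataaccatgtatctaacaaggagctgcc
Ngp: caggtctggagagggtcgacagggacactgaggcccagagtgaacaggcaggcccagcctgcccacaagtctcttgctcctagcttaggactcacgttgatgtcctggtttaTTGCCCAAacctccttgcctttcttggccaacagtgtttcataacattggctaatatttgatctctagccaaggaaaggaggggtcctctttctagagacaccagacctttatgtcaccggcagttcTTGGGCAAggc
Mpo: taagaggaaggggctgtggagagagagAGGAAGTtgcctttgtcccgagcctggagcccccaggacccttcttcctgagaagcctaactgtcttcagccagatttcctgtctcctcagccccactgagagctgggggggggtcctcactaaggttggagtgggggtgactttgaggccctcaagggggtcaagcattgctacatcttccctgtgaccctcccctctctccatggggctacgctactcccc
The C/EBP letters were found before S100a9 (1 match), before Ngp (2 matches, 138 and 11 bases before the start at their outer ends) and before Retnlg, or 3 of 10 genes, against 9.56% of 32851 windows of the same length in the table. The PU.1 letters were found before 4 of 10 genes, S100a8, Mpo, Elane and Trem1, against 7.69% of windows. S100a8 alone of the 10 had the TATA letters, 30 bases before the start, against 12.4% of windows. None of the 10 had the NF-kB letters GGGNNTTCC, against 4.98%, and other forms of an NF-kB site were not searched. PU.1 letters thus stood before genes that were high in high-fat diet replicate 1 and before both azurophil genes that were not. A match is a description of letters, and no window was tested for binding here.

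S100a8 and S100a9 encode the 2 chains of calprotectin, a calcium- and metal-binding complex that fills the cytosol of neutrophils and acts as an alarm signal once released. S100a8 read 464.5 and 849.4 in the casein arrays and 3477 and 687.7 in the high-fat arrays. High-fat diet replicate 1 was the high array, at 4.09-fold over the next, while high-fat diet replicate 2 lay between the casein arrays, so the diets overlapped. The difference was 1.30 (SE 0.87, 95% interval -1.10 to 3.70, limma adjusted p = 0.851). It was 0.13 when high-fat diet replicate 1 was left out. Its probe set carries the suffix by which Affymetrix marks probes shared by several transcripts, so related transcripts may add to its value.

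S100a9 read 329.2 and 549.9 in the casein arrays and 1180 and 415.8 in the high-fat arrays. The order of the arrays was that of S100a8, with high-fat diet replicate 1 at 2.15-fold over the next and overlapping diets. The difference was 0.72 (SE 0.59, 95% interval -0.90 to 2.34, limma adjusted p = 0.863), or -0.03 without high-fat diet replicate 1. The casein arrays were also unequal for this pair, by 0.87 log2 for S100a8 and 0.74 for S100a9, the widest gaps within that diet among the brightest probe sets of the 9 genes.

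Ngp and Camp encode specific granule proteins, neutrophilic granule protein and the precursor of the antimicrobial peptide cathelicidin, which belong to a common cystatin-like family. Ngp read 21.7 and 20.2 in the casein arrays and 41.6 and 20.5 in the high-fat arrays. Only high-fat diet replicate 1 differed from the rest, by 1.92-fold over the next array, and the other 3 arrays lay close together. The difference was 0.48 (SE 0.37, 95% interval -0.53 to 1.49, limma adjusted p = 0.855), and -0.03 without that array. Ngp lay under the intensity of 33.9 used as a filter on low values, at a mean of 24.7.

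Camp read 31.6 and 28.1 in the casein arrays and 56.2 and 32.1 in the high-fat arrays. High-fat diet replicate 1 was again high, by 1.75-fold over the next array. High-fat diet replicate 2 lay just above casein diet replicate 1, so the diets did not overlap. The difference was 0.51 (SE 0.30, 95% interval -0.32 to 1.34, limma adjusted p = 0.851), the member with the smallest unadjusted p (0.164), and 0.10 without high-fat diet replicate 1. Camp had a mean of 35.6 and passed the filter only through high-fat diet replicate 1, the other 3 arrays being under it, and a pseudocount of 16 gave a difference of 0.36.

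Mpo and Elane encode myeloperoxidase, which makes hypochlorous acid, and neutrophil elastase, a serine protease, both stored in azurophil granules. Mpo read 25.8 and 25.2 in the casein arrays and 24.8 and 25.5 in the high-fat arrays. Arrays of 1 diet differed by at most 0.04 log2, and high-fat diet replicate 1 was the lowest. The difference was -0.02 (SE 0.09, 95% interval -0.28 to 0.23, limma adjusted p = 0.981).

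Elane read 12.6 and 10.9 in the casein arrays and 12.4 and 14.3 in the high-fat arrays. High-fat diet replicate 2 was the highest array here, and the diets overlapped. The difference was 0.18 (SE 0.14, 95% interval -0.19 to 0.55, limma adjusted p = 0.854). Both genes lay under the filter in every array. No detection calls were at hand, so whether these probe sets were above background was not tested.

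Csf3r, Il1r2 and Trem1 encode the receptor for granulocyte colony-stimulating factor, the decoy receptor that binds IL-1 without signalling, and a receptor that amplifies inflammatory signals on neutrophils and monocytes. Csf3r read 275.9 and 265.5 in the casein arrays and 420.6 and 233.0 in the high-fat arrays. The high-fat arrays were the highest and the lowest of the 4, on either side of the casein pair. The difference was 0.21 (SE 0.31, 95% interval -0.64 to 1.06, limma adjusted p = 0.916), and -0.22 (SE 0.13) without high-fat diet replicate 1.

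Il1r2 read 97.3 and 113.6 in the casein arrays and 231.1 and 113.1 in the high-fat arrays. High-fat diet replicate 1 stood 2.03-fold over the next array, and high-fat diet replicate 2 nearly equalled casein diet replicate 2. The difference was 0.62 (SE 0.38, 95% interval -0.42 to 1.66, limma adjusted p = 0.851), and 0.11 (SE 0.17) without high-fat diet replicate 1.

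The brighter probe set of Trem1 read 50.4 and 52.2 in the casein arrays and 73.7 and 37.1 in the high-fat arrays. As for Csf3r, the high-fat arrays lay on either side of the casein pair. The difference was 0.03 (SE 0.36, 95% interval -0.95 to 1.01, limma adjusted p = 0.996), and -0.47 (SE 0.13) without high-fat diet replicate 1. The dimmer probe set, at 13.6 and 25.6 in the casein arrays and 25.4 and 23.8 in the high-fat arrays, did not show this order, and its low array was casein diet replicate 1. It gave 0.40 (SE 0.33), so the 2 probe sets of Trem1 disagreed on which arrays stood apart.

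**Figure D2:**
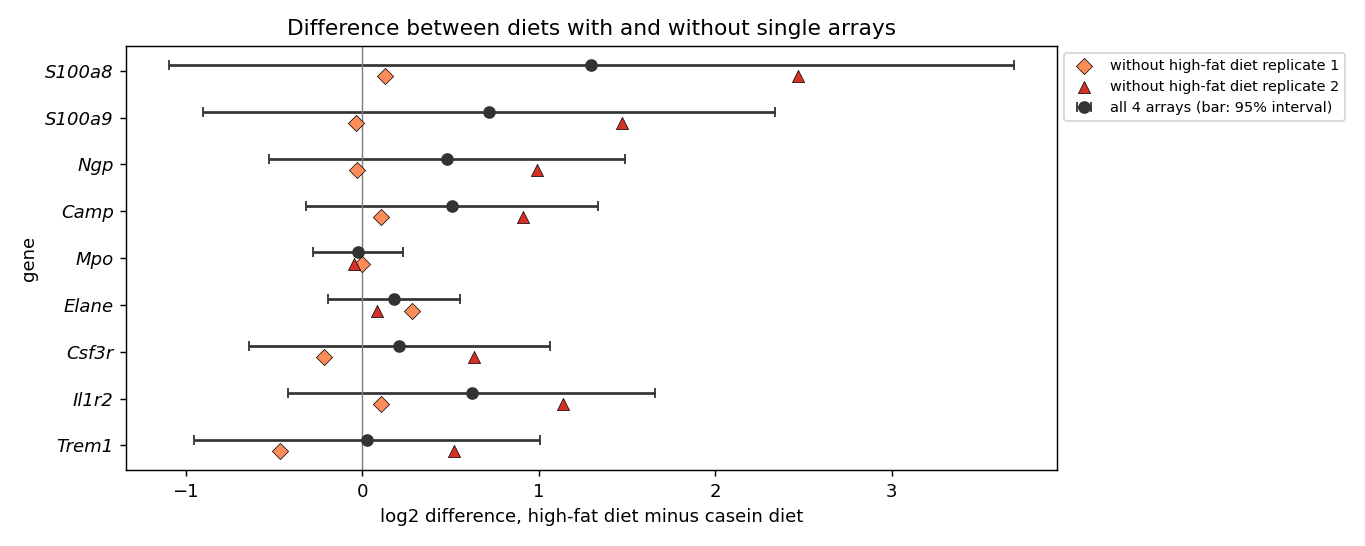
Log2 difference between diets for each gene, from all 4 arrays with its 95% interval (circles) and without each high-fat array (diamonds and triangles). Without high-fat diet replicate 1 the values lie between -0.47 and 0.28, and all 95% intervals of the 4-array fit include 0.

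The gap between the high-fat arrays exceeded that between the casein arrays for 8 of 9 genes, all but Elane. It reached 2.34 log2 for S100a8, and it lay between 0.81 and 1.03 for Ngp, Camp, Csf3r, Il1r2 and Trem1. The 7 genes that stood high in high-fat diet replicate 1 thus differed in size, with the calprotectin pair first. Their mean log2 deviation together with Mpo and Elane was 0.68 in high-fat diet replicate 1, against -0.30 and -0.15 in the casein arrays and -0.24 in high-fat diet replicate 2.

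Other tissue was uneven in the same array. Of 7 skeletal muscle markers, 7 were at least 1.5-fold higher in high-fat diet replicate 1 than in each other array, with a summed intensity of 19640 there and 546.9 to 795.6 in the other arrays. The part of this tissue in the neutrophil values was not tested. Markers of macrophages and monocytes, which share some of these receptors, were highest in high-fat diet replicate 1 for 8 of 11, but for 0 of 11 by 1.5-fold, with a summed intensity of 19831 against 15654 to 16878 in the other arrays. Of 7 markers of keratinocytes, cells that can also make S100a8 and S100a9, 4 were highest in high-fat diet replicate 1, among them Trp63 at 1.89-fold over the next array and Krt5 and Krt14 at 1.05-fold and 1.18-fold. Their sums were 1456 and 476.9 in the casein arrays and 1284 and 840.3 in the high-fat arrays. The part of macrophages or keratinocytes in the neutrophil values was not tested. Gastric surface markers were high in casein diet replicate 1, with a summed intensity of 64913 against 9870 in casein diet replicate 2 and at most 327.0 in the high-fat arrays. The other marker lists had median differences of -0.09 for mast cells and basophils, 0.05 for eosinophils (0 of 5 past the filter), -0.33 for T and NK cells, -0.10 for B cells, 0.03 for red cells and 0.26 for platelets. The 9 genes listed for endometrial stroma and epithelium summed to 24354 and 22007 in the casein arrays and to 16253 in high-fat diet replicate 2. Their lowest sum, 13969, was that of high-fat diet replicate 1. Single genes weighed on these sums. Krt8 read 10010 in casein diet replicate 1 and 1080 in high-fat diet replicate 1, and Ltf read 9294 in casein diet replicate 2. Of the 9, 6 had a negative difference and 3 a positive one. The 3 were Hoxa10, Hoxa11 and Hand2, each higher in high-fat diet replicate 1 than in both casein arrays. Platelet markers had sums of 447.1 and 503.1 in the casein arrays and 1369 and 1002 in the high-fat arrays, and 3 of 4 were highest in high-fat diet replicate 1. Most of this sum was Pf4, which was higher in both high-fat arrays (1.66, SE 0.22, limma unadjusted p = 0.00145, adjusted p = 0.851). The part of platelets, or of uneven uterine tissue, in the neutrophil values was not tested.

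**Figure D3:**
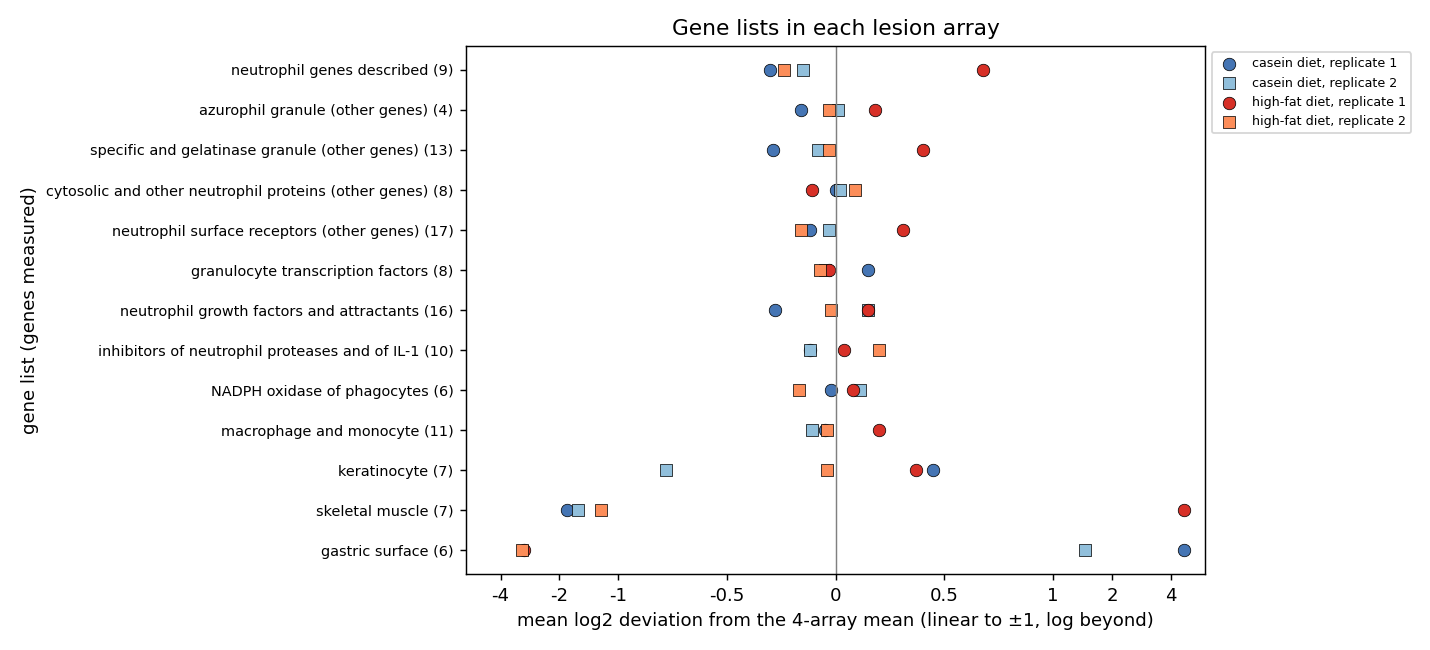
Mean log2 deviation of each gene list from its 4-array mean, 1 point for each array, on an axis that is linear to 1 and logarithmic beyond. The neutrophil genes lie at 0.68 in high-fat diet replicate 1 and skeletal muscle markers at 4.67 there, while gastric markers lie at 4.66 in casein diet replicate 1.

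Of the lists of related neutrophil genes, 82 genes other than the members were on the array, and 0 of 82 passed limma's test, where 0% of all probe sets passed. At an unadjusted p of 0.05 there were 8 of 82, against 972 of 18193 genes on the array and 5.02% of all probe sets. These 8 were Mmp8, Hp, Lcn2, Wfdc21, Ccl3, Slpi, Il17a and Ptafr. Il17a and Ptafr lay under the filter and are named only because they were counted. Both high-fat arrays lay above both casein arrays for 16 of 82 (19.5%, against 17.0% of all genes) and below them for 9 of 82, where 18.7% of all genes did. With 1 array left out, 39 of 46 named differences, members included, moved by over 1.5 times, and the ranges below are over these 4 fits. High-fat diet replicate 1 was highest for 40 of 82 (48.8%, against 24.1%) and by at least 1.5-fold for 8 of 82 (9.76%, against 1.37%). Those 8 were Chil3, Olfm4, Mmp8, Stfa2l1, Cxcr2, Fpr2, Clec4e and Trem3, and Chil3, Olfm4, Stfa2l1 and Trem3 are named only because they were counted here, after their values were seen.

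Among surface receptors, 11 of 17 genes other than Csf3r, Il1r2 and Trem1 had a positive difference (median 0.15), and 6 of 17 did without high-fat diet replicate 1 (median -0.07). Clec4e, a lectin receptor that senses microbial and dead-cell lipids, read 338.5 and 391.5 in the casein arrays and 1172 and 433.2 in the high-fat arrays. The formyl peptide receptor gene Fpr2 had 545.0 and 355.0, and 1207 and 556.9. For both genes high-fat diet replicate 1 was high by over 2-fold, and high-fat diet replicate 2 lay just above the casein arrays. Their differences were 0.97 (SE 0.51) and 0.90 (SE 0.45), or 0.25 and 0.34 without high-fat diet replicate 1. Cxcr2, the chemokine receptor that draws neutrophils into tissue, read 59.0 and 84.0 in the casein arrays and 138.1 and 61.3 in the high-fat arrays, so that the diets overlapped (0.39, SE 0.45). The integrin chain gene Itgb2 and Csf2ra, a subunit of the GM-CSF receptor, lay lower on the high-fat diet in both arrays. Itgb2 differed by -0.39 (SE 0.17, range -0.58 to -0.19) and Csf2ra by -0.34 (SE 0.14, range -0.49 to -0.19). For Csf2ra the mean of its probe sets gave only -0.16.

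Granule genes other than the members went both ways. Of the specific and gelatinase granule genes, 9 of 13 had a positive difference (median 0.10), and 4 of 13 did without high-fat diet replicate 1 (median -0.08). Mmp8, the neutrophil collagenase gene, read 19.9 and 23.4 in the casein arrays and 147.0 and 78.1 in the high-fat arrays. Both high-fat arrays were the higher ones, with a difference of 2.31 (SE 0.34, limma unadjusted p = 0.0022, adjusted p = 0.851), or 1.72 with a pseudocount of 16. Both casein arrays lay under the filter of 33.9, so Mmp8 passed it only through the high-fat arrays. Hp, for the haemoglobin-binding protein haptoglobin, had 314.4 and 527.9, and 907.0 and 1120, with high-fat diet replicate 2 the highest (1.31, SE 0.30). Lcn2, for the iron-siderophore-binding protein lipocalin 2, was lower in both high-fat arrays, at 1853 and 1612 against 2928 and 3592 (-0.91, SE 0.15, limma unadjusted p = 0.00375, adjusted p = 0.851). The lactoferrin gene Ltf, which the uterine epithelium also expresses, had 9294 in casein diet replicate 2 and 3833 to 4300 in the other arrays. Adam8, a membrane metalloprotease gene, differed by 0.46 (SE 0.25, range 0.16 to 0.76).

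Azurophil granule genes other than Mpo and Elane included Ctsc, whose product activates the granule proteases, Prtn3, for proteinase 3, and the lysosomal glucuronidase gene Gusb. They differed by 0.37 (SE 0.19), 0.25 (SE 0.29) and 0.19 (SE 0.16), with 3 of 4 positive. With 1 array left out, Ctsc ranged from 0.13 to 0.60 and Gusb from 0.0054 to 0.38, and the mean of its probe sets gave 0.12 for Ctsc. Of the cytosolic and other proteins apart from the S100 pair, 3 of 8 were positive (median -0.15). Wfdc21, of the whey acidic protein family, was higher in both high-fat arrays, at 98.9 and 107.6 against 69.0 and 71.8 (0.55, SE 0.10). Lrg1 differed by 0.72 (SE 0.47), and Padi4, whose product modifies histones in neutrophil extracellular traps, by -0.49 (SE 0.33). Leaving out 1 array gave 0.23 to 1.20 for Lrg1 and -0.86 to -0.13 for Padi4. Mxd1 differed by -0.83 (SE 0.59), with 443.1 in casein diet replicate 1 and 136.4 to 143.1 elsewhere. For Mxd1 the mean of its probe sets gave -0.48.

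Inhibitors of neutrophil proteases and of IL-1 were positive for 6 of 10 (median 0.09). Slpi, which inhibits neutrophil elastase and cathepsin G, read 532.5 and 683.6 in the casein arrays and 4956 and 5294 in the high-fat arrays. Its diets were far apart and its high-fat arrays nearly equal (3.09, SE 0.16, limma adjusted p = 0.455). Il1rn, the IL-1 receptor antagonist gene, differed by 0.54 (SE 0.20, range 0.29 to 0.80) and Serpina3n by 0.39 (SE 0.19, range 0.19 to 0.59). For Il1rn the mean of its probe sets gave 0.35. Serpinb1a, for an intracellular inhibitor of neutrophil serine proteases, differed by -0.64 (SE 0.34). It read 704.5 in casein diet replicate 1 and 293.9 to 393.8 elsewhere, and its difference was -0.22 without that array and -1.06 without casein diet replicate 2.

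**Figure D4:**
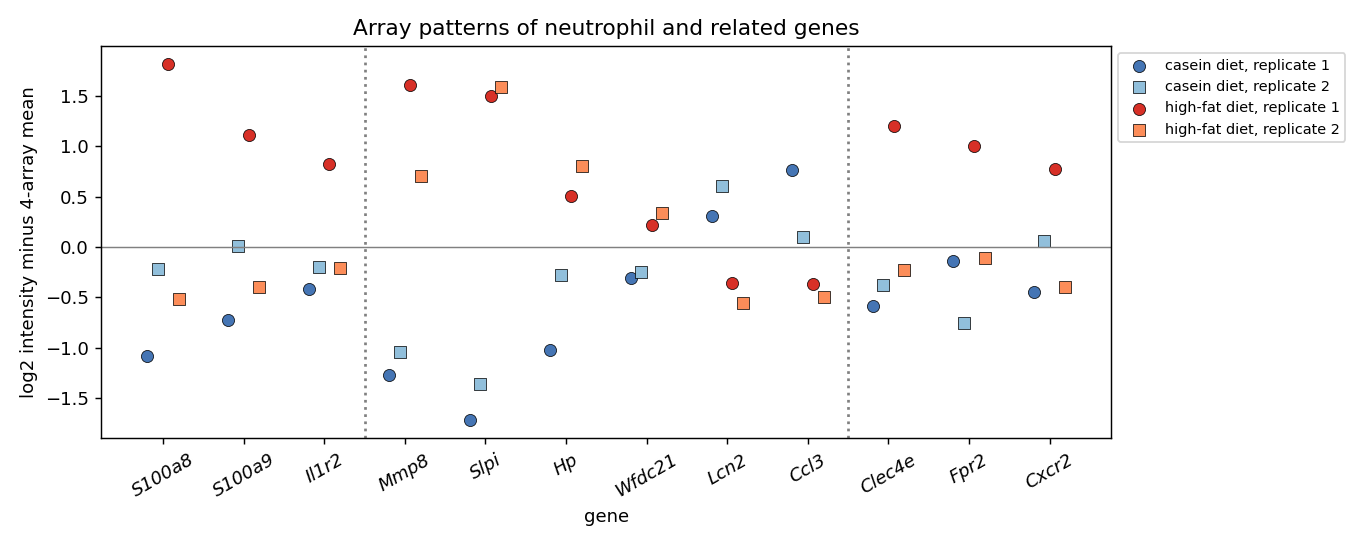
Log2 intensity minus the 4-array mean for 12 genes, 1 point for each array, with S100a8, S100a9 and Il1r2 at the left, 6 genes past the filter with an unadjusted p under 0.05 in the middle and 3 receptor genes at the right. Mmp8, Slpi, Hp and Wfdc21 lie above 0 in both high-fat arrays, whereas S100a8, S100a9 and Cxcr2 lie above 0.5 only in high-fat diet replicate 1.

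Genes of neutrophil growth factors and attractants were positive for 9 of 16 (median 0.14). This count depended on single arrays: it was 14 of 16 (median 0.37) without casein diet replicate 2, 7 of 16 (median -0.12) without casein diet replicate 1 and 6 of 16 (median -0.20) without high-fat diet replicate 1. The attractant gene Cxcl5 read 145.3 and 478.5 in the casein arrays and 468.5 and 194.5 in the high-fat arrays, so that 1 array of each diet was high (0.20, SE 0.75). Cxcl1 had 69.2 and 131.2, and 166.1 and 118.7, highest in high-fat diet replicate 1 (0.56, SE 0.37, range 0.10 to 1.02). For Cxcl1 the mean of its probe sets gave 0.42. Cxcl2 was highest in casein diet replicate 2, at 608.0 against 220.6 to 354.8 elsewhere (-0.56, SE 0.47). Csf3, the gene of granulocyte colony-stimulating factor, and Il1b differed by -0.14 (SE 0.31) and 0.22 (SE 0.39). Il1a and Cxcl12, the latter a ligand that retains neutrophils in the marrow, differed by 0.57 (SE 0.22, range 0.31 to 0.83) and 0.31 (SE 0.12). Ccl3 was lower in both high-fat arrays, at 180.8 and 164.7 against 396.3 and 248.5 (-0.86, SE 0.26, range -1.20 to -0.53).

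Genes of the phagocyte NADPH oxidase, the enzyme of the oxidative burst, were close to level, with 1 of 6 positive (median -0.08), or 0 to 3 of 6 with 1 array left out. Cybb, its catalytic subunit, differed by -0.22 (SE 0.20, range -0.44 to -0.012), Cyba by 0.06 (SE 0.11), Ncf4 by -0.07 (SE 0.14) and Rac2 by -0.18 (SE 0.13, range -0.30 to -0.06). Granulocyte transcription factors were positive for 4 of 8 (median -0.01). Cebpa, needed for early granulocyte development, differed by 0.29 (SE 0.12), Spi1, which encodes PU.1, by 0.20 (SE 0.20), Irf8 by -0.29 (SE 0.22, range -0.52 to -0.056) and the repressor gene Gfi1 by -0.60 (SE 0.34, range -1.05 to -0.16), the last with 64.7 in casein diet replicate 1 and 27.7 to 35.3 elsewhere.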

How the data were processed

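Total RNA was purified with a PicoPure kit and labelled with biotin as aRNA, per the labels' protocols. The deposited table holds an intensity for each probe set in linear units, which the authors had already normalised between arrays. The submitters' processing notes name GCOS and RMA, without roles or order. The sources used here do not give scan dates, detection calls or the step from RMA to linear values. Median intensities were 55.1 to 56.5, and the number of arrays limits precision.

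Symbols came from the platform annotation. Of 45101 probe sets, 34945 with 1 symbol were fitted in limma 3.58.1 (R 4.3.3) on log2 values, with no pseudocount and 2.13 prior degrees of freedom. Every printed SE, interval and p comes from this fit of all 4 arrays. Fits with 1 array left out are given without an SE, as 1 diet then has 1 array and no spread of its own. A second fit took the brightest probe set of 12797 genes at or above the 40th percentile (intensity 33.9), as 6 of 9 members were. Both were two-sided, with Benjamini-Hochberg adjustment. An exact two-sided permutation test of 2 arrays against 2 cannot go below 0.333 and was not used. List counts and medians cover every listed gene on the array. The limma step was tested on simulated data.

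Members and lists were chosen with earlier results of these data known. Named genes were the members, up to 4 others from each list by smallest p among genes past the filter, and 10 set by name. Alternatives were a replicate block, quantile normalisation, median centring, a pseudocount of 16, other filters, the mean of probe sets, an adjusted p of 0.10 and leaving out each array. Figures were drawn with matplotlib 3.10.9.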

Additional observations from a re-analysis of the deposited data

How the results depend on the processing

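The count of genes past an adjusted p of 0.05 in limma was 0 under every alternative run except without casein diet replicate 2. With 1 array left out it ranged from 0 to 17 of 12797 genes, and from 0 to 30 of 34945 probe sets. No member passed in any of them. With the replicate number as a block, 0 genes and 0 probe sets passed. The sample titles do not say whether same-numbered arrays were paired. Deviations of same-numbered arrays correlated at -0.0217 over tested genes, which cannot settle this, as genes are not independent replicates. The count of members with a positive difference was 8 in the 4-array fit and 4 to 8 with 1 array left out, 4 without high-fat diet replicate 1. Of 93 recomputed member values, 89 kept their direction, and the 4 that reversed did so without high-fat diet replicate 1. This count, like that of other named genes below, includes settings that cannot change a difference: the block, the filters and the second fit. For genes with 1 probe set, the mean of probe sets cannot change it either. With 1 array left out, where a lone array is assumed to vary like the others, S100a9 ranged from -0.033 to 1.47, Ngp from -0.029 to 0.99, Csf3r from -0.22 to 0.64 and Trem1 from -0.47 to 0.52. Of 407 recomputed values of 37 other named genes, 15 in 11 genes reversed, each with 1 array left out. These ranged for Prtn3 from -0.048 to 0.55, Mxd1 from -1.67 to 0.0035, Spi1 from -0.053 to 0.45, Cyba from -0.024 to 0.15, Ncf4 from -0.22 to 0.072, Ltf from -1.18 to 0.10, Cxcr2 from -0.20 to 0.97, Csf3 from -0.48 to 0.21, Cxcl2 from -1.12 to 0.0059, Cxcl5 from -0.66 to 1.06 and Il1b from -0.26 to 0.70. Quantile normalisation, median centring, the pseudocount and, for genes with several probe sets, the mean of probe sets turned no named difference. Mpo, Elane and Ngp lie under the filter, as does Camp in 3 of 4 arrays and Mmp8 in both casein arrays, where low signal limits what a difference can show.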
